A study of Mus musculus with 16 samples.

Results

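The comparison described here is the difference between 2 density responses. Mouse endothelial cells lacking VE-cadherin (VEC-null) were profiled when sparse and when confluent, as were VEC-positive cells, and for every probe set the change from sparse to confluent in VEC-null cells was subtracted from the same change in VEC-positive cells. All 4 conditions enter this difference, so it uses 16 of the 16 arrays of the study, 8 for each line. The difference, written D below, is on the log2(signal + 50) scale. A positive D means that the transcript rose more, or fell less, with density in VEC-positive than in VEC-null cells, and a negative D means the reverse.

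The groups were sparse VEC-null, confluent VEC-null, sparse VEC-positive and confluent VEC-positive cells. The labels give all 4 the same origin, endothelial cells derived from mouse embryonic stem cells homozygous for a null VE-cadherin mutation, and they do not say by what means the VEC-positive cells express VEC. All cultures were starved for 36 h in MCDB 131 medium with 1% BSA, and 15 µg of total RNA was labelled per sample. A single cRNA sample stood for each condition, and it was put on 2 copies of the MG_U74Av2 array (chip A below) and 2 of MG_U74Bv2 (chip B). The p-values below therefore measure only the spread between hybridisations of the same cRNA, and a difference between cultures cannot be told apart from a difference between lines or densities. As these were bulk samples, fewer cells expressing a gene and less RNA per cell cannot be told apart either.

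VE-cadherin, encoded by Cdh5, is the cadherin of endothelial adherens junctions and binds to the same molecule on the neighbouring cell, so it gathers at junctions when cells touch. Through the catenins it is linked to the actin cytoskeleton and it modulates growth factor signalling, and endothelial cells that reach confluence slow their division and form a quiescent barrier. The study looked for genes that depend on VE-cadherin being present and engaged at the junctions of confluent cells, and the difference between the density responses sets the lines against each other in that respect.

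Copies of one cRNA sample correlated with r of 0.951 to 0.989 across probe sets. The median signal of an array was 140.7 to 175 for chip A and 224 to 251 for chip B, and the 3'/5' ratios of the Gapdh controls were 0.903 to 1.23. Cdh5, measured by 1 probe set whose place relative to the deleted part is unknown here, read 1255 and 1282 in sparse VEC-null, 2707 and 2509 in confluent VEC-null, 1464 and 1334 in sparse VEC-positive and 2607 and 2526 in confluent VEC-positive cells. In both lines the confluent arrays were above the sparse ones, and the lines overlapped at confluence, and the labels are not tested by it. Its D was -0.16 (SE 0.13, 1.11-fold, limma adjusted p 0.39). Of the defining endothelial markers, Kdr, Tie1, Tek, Icam2 and Emcn had signals above the filter level of 160.3 on every array of chip A. Pecam1 lay between 51.1 and 287 with copies that disagreed. Eng, Cd34 and Egfl7 were also chosen as markers, and their signals are not given here.

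The zero point of D rests on the scaling of the arrays. The authors scaled every array to a common average, and D is therefore relative to the bulk of transcripts, with a median over all 14301 probe sets of 0.01. All 18 probe sets for hybridisation controls, bacterial and phage transcripts that the standard Affymetrix protocol adds to each sample, had a D below 0, with a median of -0.60. The 12 actin and Gapdh control probe sets were also all below 0, with a median of -0.66. When the arrays were scaled to the hybridisation controls instead, the median over all probe sets moved to 0.59, and 3761 probe sets (26% of those tested) passed, 92.5% of them upward against 48.3% with the deposited scaling. A D is described below with the deposited scaling. The other scaling moves the median over all genes from 0.03 to 0.63, so a list median near 0 turns with this common shift, and a median given for that scaling is to be read against 0.63. Counts given for that scaling are to be read against 26% of all genes higher and 2.02% lower.

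With the deposited scaling, 1745 of 14301 probe sets (12.2%) had a D that passed the test, an adjusted p below 0.05 in limma and a size of at least 1 on the log2 scale. Of these, 843 were higher (5.89%) and 902 lower (6.31%). Counted by gene, with 1 representative probe set each, 1170 of 9224 genes (12.7%) passed, 598 higher (6.48%) and 572 lower (6.2%). The density response itself passed for 2194 probe sets in VEC-positive cells (15.3%, 8.13% upward and 7.21% downward) and for 2356 in VEC-null cells (16.5%, 9.08% upward and 7.4% downward). Over all probe sets the responses of the lines ran together, with a Pearson r of 0.61, given as a description since the probe sets share the same 4 cRNA samples.

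**Figure D1:**
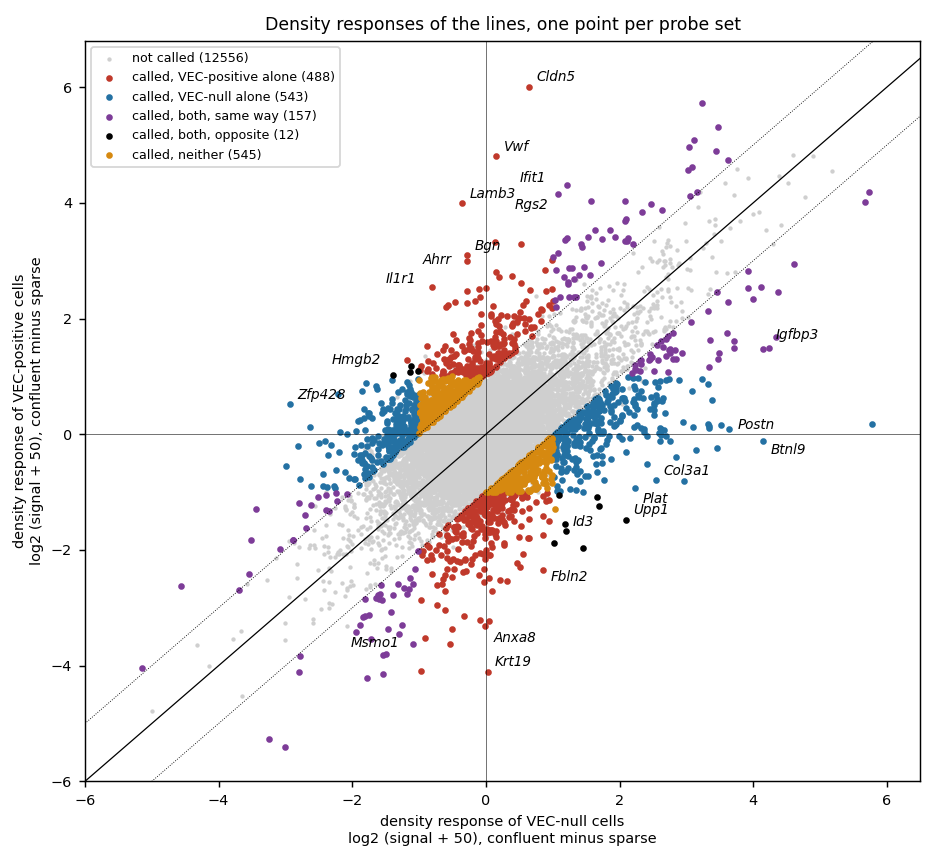
The horizontal axis is the density response of VEC-null cells and the vertical axis that of VEC-positive cells, both as log2(signal + 50), confluent minus sparse, with 1 point for each of 14301 probe sets. The solid diagonal marks equal responses and the dotted lines a D of 1 in either direction. The 488 red points lie along the vertical axis and the 543 blue points along the horizontal axis.

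Neither line carried the difference alone. The density response passed in VEC-positive cells and not in VEC-null cells for 488 of the 1745 probe sets (28%), and in VEC-null cells and not in VEC-positive cells for 543 (31.1%). Both lines responded in the same direction, by unequal amounts, in 157 (9%), and in opposite directions in 12 (0.688%). In the other 545 (31.2%) neither response passed by itself, and D passed because 2 smaller responses of opposite or unequal size added up. The response was the larger in size in VEC-positive cells for 848 probe sets and in VEC-null cells for 897. In 1050 of the 1745 the responses had opposite signs, and in 695 the same sign.

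**Figure D2:**
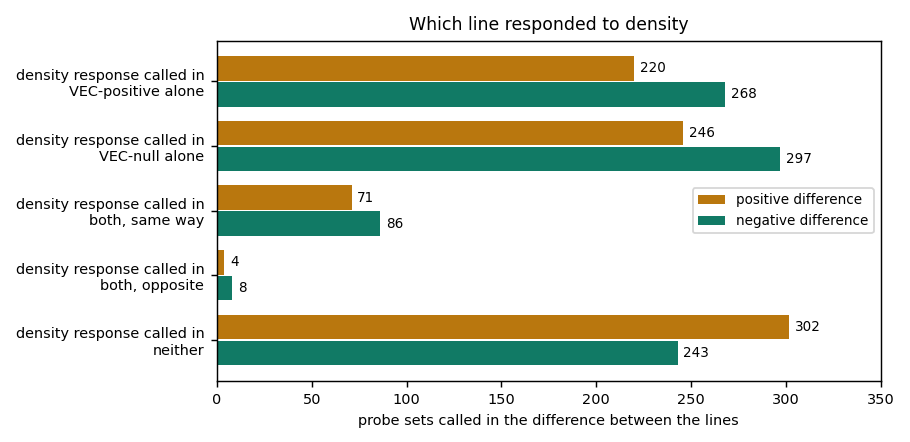
Bars count the 1745 probe sets with a passing D, by the line in which the density response itself passed, split into positive (orange) and negative (green) D. VEC-positive cells alone account for 220 and 268, VEC-null cells alone for 246 and 297, and neither line for 302 and 243.

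Among the genes that responded in VEC-positive cells alone, the largest positive D belonged to endothelial and matrix genes that were raised in confluent VEC-positive cells. Cldn5, the claudin that seals endothelial tight junctions, read 13.6 and 10.2 in sparse VEC-null, 78 and 23 in confluent VEC-null, 47.8 and 16 in sparse VEC-positive and 5222 and 5008 in confluent VEC-positive cells. It was high on both confluent VEC-positive arrays and low on all others, with no overlap. Its D was 5.36 (SE 0.38, 41.1-fold, limma adjusted p 2.6e-05), made of a response of 6.01 in VEC-positive cells and 0.64 in VEC-null cells (limma adjusted p 0.075 for the latter). Vwf, the von Willebrand factor that endothelial cells store and release in haemostasis, read 14.4 and 14.6 in sparse VEC-null, 23.4 and 20.5 in confluent VEC-null, 48.2 and 36 in sparse VEC-positive and 2594 and 2439 in confluent VEC-positive cells. The confluent VEC-positive arrays again stood clear of the others. D was 4.65 (SE 0.23, 25-fold, limma adjusted p 7e-06), and a second Vwf probe set, below the level filter, also had a positive D of 1.12.

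Lamb3, the beta-3 chain of laminin-332 in basement membranes, read 38.5 and 32.2 in sparse VEC-null, 15.6 and 17.5 in confluent VEC-null, 58.1 and 26.7 in sparse VEC-positive and 1492 and 1308 in confluent VEC-positive cells. Its D was 4.35 (SE 0.28, 20.4-fold, limma adjusted p 1.7e-05), and a second probe set also passed, at 2.52. Bgn, the small matrix proteoglycan biglycan, differed from these in being present at a moderate signal in all 4 conditions. It read 219 and 253 in sparse VEC-null, 215 and 159 in confluent VEC-null, 292 and 238 in sparse VEC-positive and 2639 and 2628 in confluent VEC-positive cells, so the 3 other conditions overlapped and confluent VEC-positive cells were apart. D was 3.38 (SE 0.21, 10.4-fold, limma adjusted p 1.6e-05). For Cldn5, Vwf, Lamb3 and Bgn alike, the VEC-null response missed the test, at 0.64, 0.16, -0.36 and -0.28.

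Il1r1, the signalling receptor for interleukin-1, read 115 and 137 in sparse VEC-null, 45.2 and 56.6 in confluent VEC-null, 42.9 and 49.7 in sparse VEC-positive and 508 and 518 in confluent VEC-positive cells. It was lower in confluent than in sparse VEC-null cells without reaching the size threshold (-0.80, limma adjusted p 0.0029), and rose by 2.55 in VEC-positive cells. Its D was 3.35 (SE 0.23, 10.2-fold, limma adjusted p 2.5e-05). Ahrr, the repressor of the aryl hydrocarbon receptor, had signals of 12.7 to 35.8 in the 3 other conditions and of 517 and 564 in confluent VEC-positive cells, a D of 3.29. Plagl1, an imprinted zinc finger factor that restrains the cell cycle, and Slc14a1, a urea transporter, followed the same shape with a D of 2.80 and 2.76. For both genes a second probe set passed in the same direction, at 1.51 and 2.62.

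**Figure D3:**
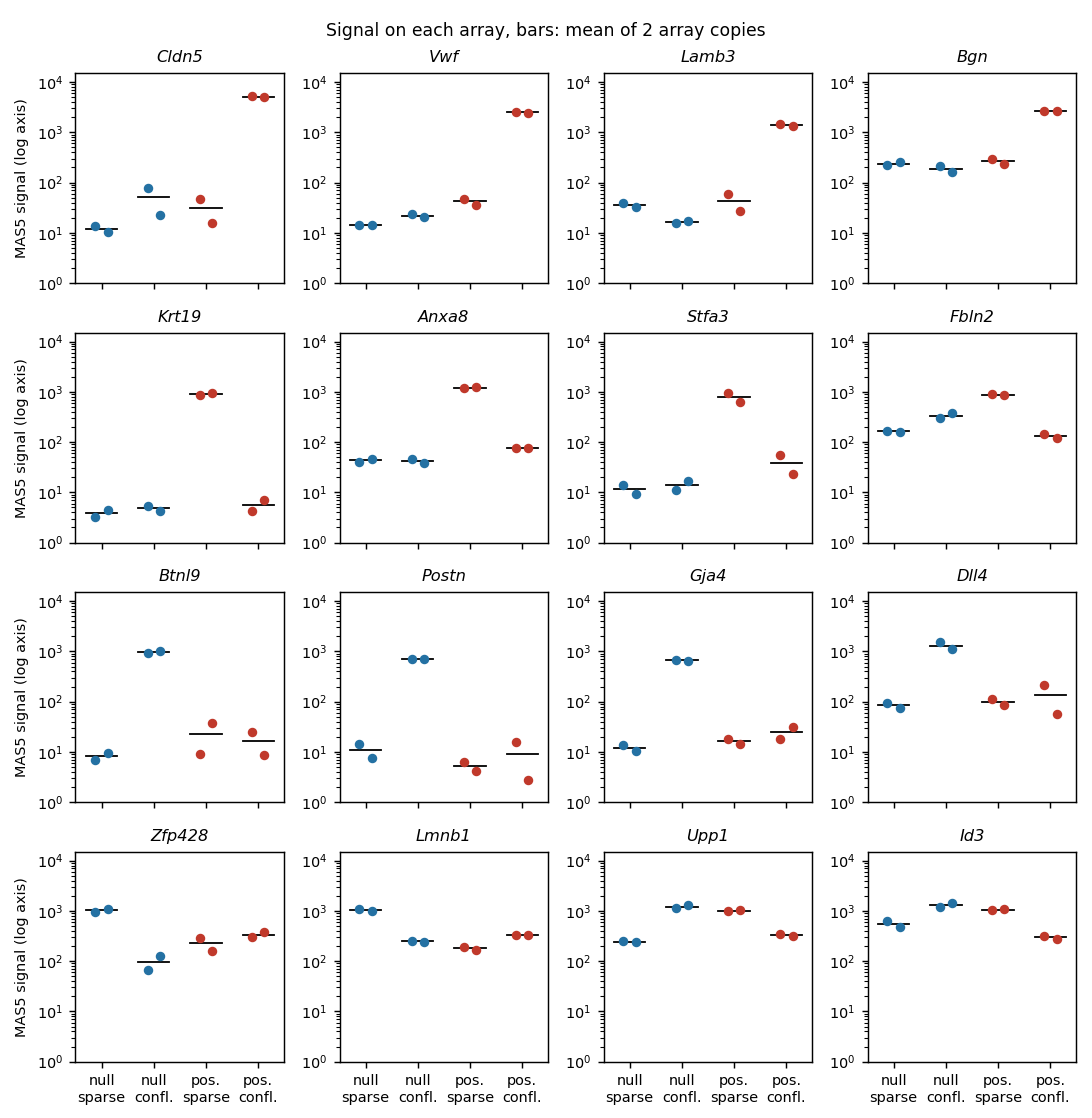
Each panel shows the MAS5 signal of 1 gene (log axis) on the 8 arrays of its chip, 2 copies per condition, blue for VEC-null and red for VEC-positive cells, with a bar at the mean of the copies. The top row is high in confluent VEC-positive cells, the second in sparse VEC-positive cells and the third in confluent VEC-null cells, and the bottom row holds genes that fell in VEC-null cells (Zfp428, Lmnb1) or moved in opposite directions (Upp1, Id3).

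The negative D within this class came from genes that were high in sparse VEC-positive cells and lost with density. Krt19, a keratin of simple and ductal epithelia that is also found in mesothelium, read 3.3 and 4.5 in sparse VEC-null, 5.3 and 4.3 in confluent VEC-null, 862 and 948 in sparse VEC-positive and 4.2 and 7.0 in confluent VEC-positive cells. Both sparse VEC-positive arrays stood far above the other arrays, none of which exceeded 7. The D was -4.12 (SE 0.26, 17.4-fold, limma adjusted p 1.6e-05), all of it from the VEC-positive response of -4.10, since the VEC-null response was 0.02. Anxa8, an annexin of epithelia, read 40.1 and 46.5 in sparse VEC-null, 45.9 and 38.5 in confluent VEC-null, 1194 and 1222 in sparse VEC-positive and 75.8 and 76.6 in confluent VEC-positive cells. Its D was -3.30 (SE 0.22, 9.85-fold, limma adjusted p 1.8e-05), with a VEC-null response of -0.02. Stfa3, a stefin that inhibits cathepsins, read 13.9 and 9.2 in sparse VEC-null, 10.9 and 16.9 in confluent VEC-null, 933 and 639.8 in sparse VEC-positive and 54.3 and 23.3 in confluent VEC-positive cells and had a D of -3.29 (SE 0.51, 9.77-fold, limma adjusted p 0.0014).

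Fbln2, an extracellular matrix protein bound to basement membranes and elastic fibres, also fell in VEC-positive cells, but was present in both lines. It read 165 and 162 in sparse VEC-null, 303 and 374 in confluent VEC-null, 900.0 and 858 in sparse VEC-positive and 146 and 119.9 in confluent VEC-positive cells. In VEC-null cells it was higher on both confluent arrays, by 0.86, short of the size threshold, and D was -3.20 (SE 0.21, 9.22-fold, limma adjusted p 1.7e-05). Gpx8, a peroxidase of the endoplasmic reticulum, read 781 and 719 in sparse VEC-null, 494 and 527 in confluent VEC-null, 6436 and 6431 in sparse VEC-positive and 628 and 539.5 in confluent VEC-positive cells. All conditions had a clear signal, and sparse VEC-positive cells stood well above the others. D was -2.84 (SE 0.17, 7.18-fold, limma adjusted p 1.2e-05).

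Some epithelial and mesothelial markers were part of this pattern. Of 25 genes of the keratin, epithelial and mesothelial list on the chips, 5 had a signal above the level filter in at least 1 condition. Of these, 3 (beside 6.2% of all genes) had a negative D that passed, Krt19, Anxa8 and Msln, the mesothelial surface protein mesothelin. Krt19 and Anxa8 passed the level filter only through sparse VEC-positive cells. Msln read 594 and 599.5 in sparse VEC-null, 28.3 and 32.1 in confluent VEC-null, 3268 and 3503 in sparse VEC-positive and 51.2 and 15.2 in confluent VEC-positive cells, so it fell in both lines and further in VEC-positive cells, with a D of -2.39 (SE 0.27, 5.24-fold, limma adjusted p 0.00026). Ezr and Cdh1 had a D of -0.33 and 0.00, which missed the test. The summed signal of all 25 genes was 7036 and 7480 in sparse VEC-positive cells against 1662 to 3076 in the other conditions. Most of the sparse VEC-positive sum came from Krt19, Anxa8 and Msln themselves, so the sum adds nothing to their D. Whether cells of another type were present was not tested.

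In VEC-null cells alone, the largest negative D belonged to genes that appeared in confluent VEC-null cells and stayed low elsewhere. Btnl9, a butyrophilin-like member of the immunoglobulin superfamily, read 6.9 and 9.5 in sparse VEC-null, 935 and 1036 in confluent VEC-null, 9.0 and 37.3 in sparse VEC-positive and 24.7 and 8.7 in confluent VEC-positive cells. It was near 1000 on both confluent VEC-null arrays and under 40 on every other. D was -4.27 (SE 0.50, 19.3-fold, limma adjusted p 0.00031), with a VEC-null response of 4.15 and a VEC-positive response of -0.12. A second Btnl9 probe set stayed below the level filter in all conditions and had a D of 0.27. Adamtsl1, a secreted protein related to the ADAMTS proteases, read 51.5 and 47.6 in sparse VEC-null, 1031 and 1056 in confluent VEC-null, 55.8 and 78.5 in sparse VEC-positive and 48.4 and 49.1 in confluent VEC-positive cells, again with 1 condition apart, and had a D of -3.70 (SE 0.38, 13-fold, limma adjusted p 0.00017).

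Postn, the matricellular protein periostin, which is made by fibroblasts and by endothelial cells that turn mesenchymal, read 14.4 and 7.5 in sparse VEC-null, 704 and 706 in confluent VEC-null, 6.3 and 4.1 in sparse VEC-positive and 15.4 and 2.8 in confluent VEC-positive cells. Its D was -3.54 (SE 0.28, 11.7-fold, limma adjusted p 4.7e-05). Col3a1, the chain of fibrillar type III collagen, read 176 and 285 in sparse VEC-null, 1376 and 1754 in confluent VEC-null, 116 and 122 in sparse VEC-positive and 67.7 and 30.7 in confluent VEC-positive cells. Its confluent VEC-null arrays were above all others, and in VEC-positive cells both confluent arrays were below both sparse ones. D was -3.34 (SE 0.33, 10.1-fold, limma adjusted p 0.00013), and 2 further probe sets passed in the same direction, at -2.62 and -1.69. Gja4, the gap junction protein connexin 37 of arterial endothelium, read 13.8 and 10.6 in sparse VEC-null, 674 and 648 in confluent VEC-null, 18.2 and 14.4 in sparse VEC-positive and 18.3 and 30.8 in confluent VEC-positive cells. D was -3.35 (SE 0.26, 10.2-fold, limma adjusted p 4.5e-05).

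Serpina3n, a serine protease inhibitor of the acute phase, had signals of 982 and 964 when VEC-null cells were confluent, against 38.5 to 145 in the other conditions, a D of -3.22 (SE 0.48, 9.33-fold, limma adjusted p 0.0011). Plat, the tissue plasminogen activator that endothelial cells release to start fibrinolysis, read 305 and 298 in sparse VEC-null, 1542 and 1672 in confluent VEC-null, 737 and 649 in sparse VEC-positive and 395 and 288 in confluent VEC-positive cells. It rose in VEC-null cells by 2.24, and in VEC-positive cells it was lower when confluent by -0.94, just short of the size threshold. Its D was -3.17 (SE 0.20, 9.01-fold, limma adjusted p 1.7e-05). The lowest D of all, -5.60, belonged to a chip A probe set that matched several gene symbols and is not named. Its signals were 3394 and 3454 on the confluent VEC-null arrays against 8.6 to 27.2 elsewhere.

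Where the response passed in VEC-null cells alone, a positive D came from genes that fell with density in those cells. Zfp428, a zinc finger protein, read 960.4 and 1105 in sparse VEC-null, 65.5 and 124 in confluent VEC-null, 294 and 159 in sparse VEC-positive and 296 and 373 in confluent VEC-positive cells. Sparse VEC-null cells were the highest and confluent VEC-null cells the lowest condition, and the VEC-positive response of 0.52 missed the test. D was 3.45 (SE 0.42, 10.9-fold, limma adjusted p 0.00037). Lmnb1, lamin B1 of the nuclear envelope, read 1075 and 978 in sparse VEC-null, 251 and 246 in confluent VEC-null, 192 and 170.4 in sparse VEC-positive and 336 and 336 in confluent VEC-positive cells. Its D was 2.59 (SE 0.18, 6.03-fold, limma adjusted p 2e-05), but a second probe set on chip B gave -0.48 and did not pass. Slc6a15, a transporter of neutral amino acids, read 1234 and 1177 in sparse VEC-null, 125 and 92.9 in confluent VEC-null, 83.9 and 79.4 in sparse VEC-positive and 24.5 and 57.5 in confluent VEC-positive cells and had a D of 2.43 (SE 0.28, 5.4-fold, limma adjusted p 0.00029). Elp6, a subunit of the Elongator complex, and Pask, a kinase with a PAS domain, had a D of 2.91 and 2.47, with a VEC-null response of -2.21 and -1.64.

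Where both lines responded in the same direction, D measured how much more 1 line moved. Rgs2, which shortens G protein signalling, read 136 and 106 in sparse VEC-null, 398 and 241 in confluent VEC-null, 181 and 145 in sparse VEC-positive and 3866 and 3577 in confluent VEC-positive cells. It rose in both lines and by far more in VEC-positive cells, 4.15 against 1.08, a D of 3.07 (SE 0.28, 8.39-fold, limma adjusted p 8.5e-05). Col15a1, a collagen of vascular basement membranes, rose by 4.03 in VEC-positive and 1.57 in VEC-null cells (D 2.46), and the transmembrane protein Tmem119 by 3.39 and 1.21 (D 2.18). Atic, which completes purine synthesis, fell in both lines and more in VEC-null cells, -3.44 against -1.29 (D 2.15). A second Atic probe set fell alike in both lines and had a D of 0.26.

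In the other direction, Igfbp3, a secreted protein that binds insulin-like growth factors, read 146 and 192 in sparse VEC-null, 3529.8 and 4611 in confluent VEC-null, 65.8 and 75.1 in sparse VEC-positive and 327 and 254 in confluent VEC-positive cells. It rose by 4.23 in VEC-null and 1.49 in VEC-positive cells. Its D was -2.74 (SE 0.25, 6.66-fold, limma adjusted p 8.4e-05), and a second probe set gave -2.68. Saa3, an acute phase serum amyloid, read 311 and 314 in sparse VEC-null, 7627 and 6991 in confluent VEC-null, 308 and 256 in sparse VEC-positive and 1019 and 1009 in confluent VEC-positive cells, so the sparse conditions were alike and confluence raised it to a higher level in VEC-null cells. D was -2.66 (SE 0.15, 6.31-fold, limma adjusted p 1.2e-05). Dusp5, a nuclear phosphatase that switches off ERK, fell in both lines, to 54.9 and 222 in confluent VEC-positive cells and less far, to 777 and 737, in confluent VEC-null cells, from 2657 to 3499.9 in the sparse conditions, a D of -2.44 (SE 0.48, 5.42-fold, limma adjusted p 0.0049).

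In the 12 probe sets whose responses passed in opposite directions, 8 had a negative D and 4 a positive one. Upp1, uridine phosphorylase 1 of pyrimidine salvage, read 248 and 243 in sparse VEC-null, 1127 and 1307 in confluent VEC-null, 989 and 1024 in sparse VEC-positive and 344 and 317 in confluent VEC-positive cells. Sparse VEC-null and confluent VEC-positive cells were low, and the other 2 conditions high. It rose by 2.10 in VEC-null cells and fell by 1.47 in VEC-positive cells, a D of -3.57 (SE 0.16, 11.9-fold, limma adjusted p 6.6e-06), but a second probe set on the same chip had a D of 0.69 and did not pass. Id3, an inhibitor of basic helix-loop-helix factors and a target of BMP signalling, read 639 and 481 in sparse VEC-null, 1223 and 1452 in confluent VEC-null, 1052 and 1074 in sparse VEC-positive and 316 and 280.2 in confluent VEC-positive cells. Its D was -2.87 (SE 0.20, 7.32-fold, limma adjusted p 2.8e-05), with a rise of 1.19 in VEC-null and a fall of 1.68 in VEC-positive cells.

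S100a13, a small calcium-binding protein, had a D of -2.93 on its representative probe set, and of -2.89 and -1.75 on others that passed. Uqcrh, the hinge subunit of respiratory complex III, had a D of -2.74 (SE 0.16, 6.68-fold, limma adjusted p 1.2e-05) from responses of 1.66 in VEC-null and -1.08 in VEC-positive cells. Exoc3l4, related to an exocyst subunit, had a D of -2.73. Among the positive ones, Hmgb2, a chromatin protein of dividing cells, read 1342 and 1606 in sparse VEC-null, 549.6 and 506 in confluent VEC-null, 508 and 529 in sparse VEC-positive and 1155 and 1066 in confluent VEC-positive cells, a mirror image of Id3, with a D of 2.42 (SE 0.16, 5.37-fold, limma adjusted p 2e-05). Ccl5, a chemokine that attracts T cells and monocytes, read 2195 and 1718 in sparse VEC-null, 883 and 847 in confluent VEC-null, 99.8 and 215 in sparse VEC-positive and 326 and 496 in confluent VEC-positive cells. The lines were far apart when sparse and closer when confluent, and D was 2.31 (SE 0.37, 4.95-fold, limma adjusted p 0.0016). Kcnip1, a calcium sensor of potassium channels, had a D of 2.11.

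In the class in which neither line's response passed, the examples of largest D combined shifts short of the threshold. Top2a, the topoisomerase of dividing cells, read 2119 and 1929.9 in sparse VEC-null, 946 and 1050.4 in confluent VEC-null, 1055 and 1234 in sparse VEC-positive and 2043 and 1769.8 in confluent VEC-positive cells. Each response stayed short of the size threshold, 0.71 in VEC-positive and -0.99 in VEC-null cells, and D was 1.70 (SE 0.16, 3.24-fold, limma adjusted p 0.00011). Smc2, a condensin subunit, had 0.73 and -0.94 and a D of 1.68. Mns1, Ogfrl1 and Tmem62 were the other genes of largest positive D in this class, at 1.94, 1.75 and 1.69. Further probe sets for Ogfrl1 (-0.19 to 1.52) and Tmem62 (-0.75 and -0.17) did not pass or were below the level filter. Pnp, the purine nucleoside phosphorylase of purine salvage, read 1544 and 1723 in sparse VEC-null, 3408 and 3198 in confluent VEC-null, 4926 and 4677 in sparse VEC-positive and 2711 and 2627 in confluent VEC-positive cells and had a D of -1.83 (SE 0.12, 3.56-fold, limma adjusted p 1.8e-05). Blvrb, a biliverdin reductase, had a D of -1.83, Rab6b -1.76, Commd5 -1.74 and Nup210 -1.72. A second Rab6b probe set had -0.47 and did not pass, and a second Nup210 probe set, below the level filter, had 0.62.

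The difference took a simple shape in part of the genes. In 670 of the 1745 probe sets, at least 1 condition passed the test against each of the other 3 in the same direction, and in 1075 none did. In 16 of the 670 this held for 2 conditions, and these are counted under both below. Over all 14301 probe sets, 1097 (7.67%) had a condition apart in this way, whatever their D. Among the probe sets with a passing D, confluent VEC-null cells were the high condition in 130 and the low one in 37. Confluent VEC-positive cells were high in 112 and low in 56, sparse VEC-positive cells high in 102 and low in 59, and sparse VEC-null cells high in 95 and low in 95. Whatever the D, the counts in the same order were 189 high and 78 low, 189 and 97, 169 and 99, and 172 and 172. An excess of high over low was thus present there too, outside sparse VEC-null cells. Among those with a passing D, Btnl9, Adamtsl1 and Postn lead the set high in confluent VEC-null cells. Cldn5, Vwf and Lamb3 lead the set high in confluent VEC-positive cells, and Krt19, Anxa8 and Stfa3 the set high in sparse VEC-positive cells.

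Among the 41 gene lists examined, those of the cell cycle had the most members with a positive D that passed. Of 34 measured genes of DNA replication and S phase, 20 were higher and 0 lower, beside 6.48% and 6.2% of all genes, with a median D of 1.07 against 0.03 over all genes. Of 36 measured genes of mitosis and the spindle, 22 were higher and 0 lower, with a median of 1.10. Among replication genes both lines moved apart, with a response below 0 in VEC-null cells in 30 of 34 and above 0 in VEC-positive cells in 29 of 34. Among mitotic genes the difference came mainly from VEC-null cells. Their response was below 0 in 34 of 36 in VEC-null cells and above 0 in 22 of 36 in VEC-positive cells, with medians of -0.89 and 0.22. By itself, 1 replication gene passed upward in VEC-positive cells (8.62% of all genes did) and 3 downward in VEC-null cells (7.81% of all genes). Among mitotic genes 12 passed downward in VEC-null cells, beside 7.81% of all genes. In VEC-positive cells 0 passed in either direction, beside 8.62% upward and 7.27% downward of all genes.

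Gins1, a subunit of the replicative helicase, read 453 and 449 in sparse VEC-null, 46.7 and 42.8 in confluent VEC-null, 135 and 222 in sparse VEC-positive and 146 and 167 in confluent VEC-positive cells, with a D of 2.29 (SE 0.39, 4.88-fold, limma adjusted p 0.0024). It was highest in sparse and lowest in confluent VEC-null cells, with the VEC-positive arrays between. Mcm3, a subunit of the helicase ring that is loaded onto origins, read 3361 and 4161 in sparse VEC-null, 2012 and 1769.7 in confluent VEC-null, 1754 and 1464 in sparse VEC-positive and 2487 and 2518 in confluent VEC-positive cells, and its D was 1.60 (SE 0.18, 3.02-fold, limma adjusted p 0.00022). Bub1, a kinase of the spindle checkpoint, read 1551 and 1520.3 in sparse VEC-null, 527 and 473 in confluent VEC-null, 776 and 716 in sparse VEC-positive and 989 and 1006 in confluent VEC-positive cells, with a D of 1.93 (SE 0.14, 3.8-fold, limma adjusted p 3.3e-05). For both genes sparse VEC-null cells were the highest and the order of confluent and sparse was reversed in VEC-positive cells. Pola1, the catalytic subunit of DNA polymerase alpha, had a D of 1.81, Orc1 of the origin recognition complex 1.58, the flap endonuclease Fen1 1.56 and the licensing factor Cdc6 1.54. Kif2c, a kinesin that trims microtubules, had 1.63, Smc4 of condensin 1.53 and Racgap1 of the cytokinetic midzone 1.46. Not all members moved: Ccne1 and Rfc3 had a D of -0.07 and -0.09, and Cdk1 and Ccnb2 of 0.23 and 0.14, which missed the test.

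The promoters of these genes are shown because the members moved together. RefSeq promoters (build GRCm38.p6, the first listed start of each gene, 250 bases before the start, both strands) were searched for words bound by cell cycle regulators. The E2F words were TTTCGCGC, TTTGGCGC and TTTCCCGC, which 1.59% of 27025 promoters hold, against 6 of 29 replication genes with an entry (20.7%) and 1 of 29 mitotic genes (3.45%). The CHR word, TTTGAA, was in 16.3% of all promoters and in 12 of 29 mitotic genes (41.4%). The CCAAT word was in 34.5% of all, in 18 of 29 replication genes (62.1%) and in 24 of 29 mitotic genes (82.8%). Mitotic genes with a passing D held the CHR word in 6 of 16 cases and the other mitotic genes in 6 of 13. Capitals mark the E2F word in Orc1 (chr4:108579204-108579453) and Pola1 (chrX:93632156-93632405) and the CHR words in Top2a (chr11:99024190-99024439), printed on the strand of the gene, where the E2F words and 1 of the CHR words appear in reversed form.
Orc1: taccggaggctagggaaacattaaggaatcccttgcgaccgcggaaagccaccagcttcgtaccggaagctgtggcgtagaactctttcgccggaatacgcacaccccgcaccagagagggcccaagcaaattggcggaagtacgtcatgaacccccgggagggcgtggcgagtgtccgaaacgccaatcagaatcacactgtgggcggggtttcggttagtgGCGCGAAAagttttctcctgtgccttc
Pola1: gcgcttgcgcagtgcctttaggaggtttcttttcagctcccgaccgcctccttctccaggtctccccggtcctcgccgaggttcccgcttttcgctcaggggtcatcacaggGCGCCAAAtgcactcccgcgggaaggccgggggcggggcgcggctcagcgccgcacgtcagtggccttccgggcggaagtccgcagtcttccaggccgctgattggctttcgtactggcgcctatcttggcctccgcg
Top2a: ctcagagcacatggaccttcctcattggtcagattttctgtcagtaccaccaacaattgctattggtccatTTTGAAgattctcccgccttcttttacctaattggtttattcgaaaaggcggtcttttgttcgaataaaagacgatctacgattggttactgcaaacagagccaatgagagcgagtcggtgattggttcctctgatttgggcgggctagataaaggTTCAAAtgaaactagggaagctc
The Orc1 match starts 27 bases before the start and the Pola1 match 138, and the Top2a matches start at 179 and 23. A match is a description of the letters and no measure of binding.

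Cholesterol synthesis was the list with the most members whose negative D passed. Of 20 measured genes, 13 were lower and 0 higher, beside 6.2% and 6.48% of all genes. The median D was -1.20, and all 20 had a D below 0. These genes encode the mevalonate and sterol steps that SREBP factors switch on when cells run short of sterol. VEC-positive cells carried most of the difference: 14 genes fell with density there (7.27% of all genes did) and 5 in VEC-null cells (7.81%). In either line 0 rose, beside 8.62% of all genes in VEC-positive and 9.14% in VEC-null cells. Scaled to the hybridisation controls, 8 of 20 were lower (2.02% of all genes then were) and 0 higher, with a median of -0.55.

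Fdps, the synthase of farnesyl diphosphate, read 5705 and 5729 in sparse VEC-null, 1789 and 2091 in confluent VEC-null, 8113 and 7465 in sparse VEC-positive and 395 and 391 in confluent VEC-positive cells. It fell in both lines, and confluent VEC-positive cells were the lowest condition although sparse VEC-positive cells were the highest. D was -2.60 (SE 0.13, 6.08-fold, limma adjusted p 7.7e-06). Msmo1, the sterol C4 methyl oxidase, read 1107 and 1193 in sparse VEC-null, 495 and 526 in confluent VEC-null, 2728 and 2837 in sparse VEC-positive and 144 and 225 in confluent VEC-positive cells, with a D of -2.52 (SE 0.22, 5.73-fold, limma adjusted p 6.5e-05). Idi1, the isomerase of isopentenyl diphosphate, read 3418 and 3436 in sparse VEC-null, 1233 and 1072 in confluent VEC-null, 5258 and 4769 in sparse VEC-positive and 327 and 292 in confluent VEC-positive cells, with a D of -2.28 (SE 0.14, 4.86-fold, limma adjusted p 1.6e-05). These 3 genes share the shape: the sparse VEC-positive arrays were above the sparse VEC-null arrays, and the confluent VEC-positive arrays were below all others. Nsdhl, Lss and Mvd, which act later in sterol synthesis, in the closing of the sterol rings and in the mevalonate steps, had a D of -2.06, -2.05 and -1.97. Cyp51, Sc5d and Ebp, of the last steps, had a D of -0.91, -0.21 and -0.15, which did not pass. In the neighbouring pathway of fatty acid synthesis, 1 of 12 genes was lower, the desaturase Scd1 at -2.21, and 0 were higher, a share near the 6.2% of all genes. The median was -0.14. With hybridisation control scaling it was 0.39, with 1 lower and 3 higher, beside 2.02% and 26% of all genes.

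Promoters of the cholesterol genes held the CCAAT word in 15 of 16 genes with an entry (93.8%), against 34.5% of all promoters. Genes with a passing D held it in 9 of 10 cases and the others in 6 of 6. The sterol regulatory word TCACNCCAC was in 1 of 16 (6.25%) against 1.04%. That gene was Hmgcs1, the HMG-CoA synthase, chosen for display after its values were seen. It read 2452 and 3003 in sparse VEC-null, 2179 and 1958 in confluent VEC-null, 4094 and 3493 in sparse VEC-positive and 846 and 709 in confluent VEC-positive cells and had a D of -1.83 (SE 0.18, 3.56-fold, limma adjusted p 0.00014). Capitals mark the sterol word and the CCAAT words, which do not overlap, in Hmgcs1 (chr13:119690101-119690350) and the CCAAT words in Msmo1 (chr8:64733579-64733828), on the strand of the gene.
Hmgcs1: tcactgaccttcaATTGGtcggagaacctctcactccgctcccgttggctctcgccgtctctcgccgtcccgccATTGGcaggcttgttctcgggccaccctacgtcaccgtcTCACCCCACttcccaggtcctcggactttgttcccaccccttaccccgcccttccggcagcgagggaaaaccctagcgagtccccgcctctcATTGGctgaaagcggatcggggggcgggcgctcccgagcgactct
Msmo1: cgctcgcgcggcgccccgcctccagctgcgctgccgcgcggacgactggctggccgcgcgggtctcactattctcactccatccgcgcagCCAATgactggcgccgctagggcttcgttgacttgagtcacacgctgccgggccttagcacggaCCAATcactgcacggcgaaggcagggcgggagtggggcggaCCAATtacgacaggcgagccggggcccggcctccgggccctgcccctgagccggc
In Hmgcs1 the sterol word starts 137 bases before the start, and CCAAT, in its reversed form ATTGG, starts at 237, 176 and 45. In Msmo1 CCAAT starts at 160, 96 and 55.

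**Figure D4:**
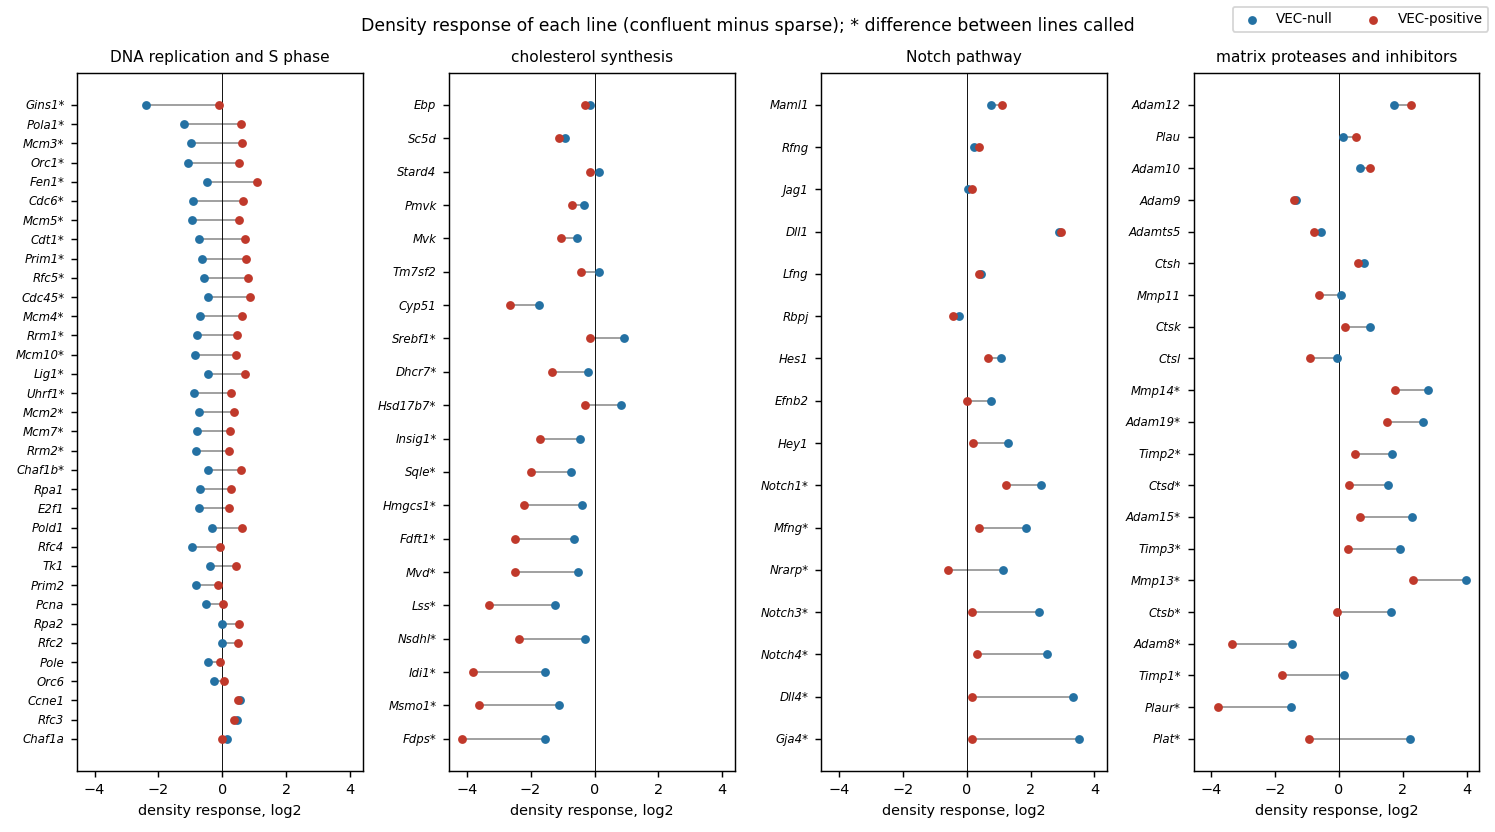
Each row is a measured gene of 1 of 4 lists. Its density response (log2, confluent minus sparse) is a blue point for VEC-null and a red point for VEC-positive cells, the joining line is D, and an asterisk marks a D that passed. The replication genes sit on either side of 0 (20 of 34 marked), the cholesterol genes lie further left in VEC-positive cells (13 of 20), and the Notch genes further right in VEC-null cells (7 of 16).

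Notch pathway genes had a negative D mostly through a rise in VEC-null cells. Of 16 measured genes, 7 were lower and 0 higher, beside 6.2% and 6.48% of all genes, with a median D of -0.92. Notch signalling passes between touching cells, from ligands such as Dll4 to receptors whose cleaved tail acts with Rbpj, and in endothelium it sets arterial fate and restrains sprouting. In VEC-null cells 10 of the 16 rose with density and 0 fell, beside 9.14% and 7.81% of all genes. In VEC-positive cells 3 rose and 0 fell, beside 8.62% and 7.27% of all genes. With the hybridisation control scaling the median was -0.24, and 5 were lower and 0 higher, beside 2.02% and 26% of all genes. Of the 7, Gja4, Dll4 and Notch3 passed the level filter only through confluent VEC-null cells. Genes admitted in that way tend to a negative D, which adds to the count of 7.

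Dll4, the endothelial Notch ligand, read 96.1 and 74.1 in sparse VEC-null, 1513 and 1106 in confluent VEC-null, 113 and 85.1 in sparse VEC-positive and 213 and 57.3 in confluent VEC-positive cells. Its confluent VEC-null arrays were several times above every other array, and the confluent VEC-positive copies disagreed. D was -3.14 (SE 0.55, 8.83-fold, limma adjusted p 0.0027). Notch4, the receptor largely restricted to endothelium, read 141 and 161 in sparse VEC-null, 1225 and 982 in confluent VEC-null, 449 and 452 in sparse VEC-positive and 646 and 519 in confluent VEC-positive cells. It was lowest in sparse VEC-null and highest in confluent VEC-null cells, with both VEC-positive conditions between, and D was -2.18 (SE 0.21, 4.54-fold, limma adjusted p 0.00011). The receptor Notch3, known from vascular mural cells, had a D of -2.11. Nrarp, a feedback inhibitor of Notch, had -1.71 and Mfng, a glycosyltransferase that modifies Notch receptors, -1.49. Notch1 rose in both lines, by 2.31 and 1.22, and is not among the 6 largest. Gja4, described above, was the largest of the list. The targets Hey1 and Hes1 had a D of -1.07 and -0.41, and the ligands Jag1 and Dll1 of 0.13 and 0.07, which missed the test. The RBPJ word GTGGGAA was in 1 of 13 promoters of these genes (7.69%) against 5.41% of all.

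Ligands and receptors of vascular growth followed in part. Of 18 measured genes of the VEGF and angiopoietin axis, 7 were lower and 0 higher, beside 6.2% and 6.48% of all genes. The median was -0.47. With hybridisation control scaling the median was 0.16, against 0.63 over all genes, with 3 lower and 1 higher, beside 2.02% and 26% of all genes. Efna1, an ephrin that binds EphA receptors on touching cells, read 108 and 45.2 in sparse VEC-null, 1096 and 1248 in confluent VEC-null, 119 and 139.5 in sparse VEC-positive and 297 and 258 in confluent VEC-positive cells and had a D of -2.45 (SE 0.31, 5.46-fold, limma adjusted p 0.00047). Pgf, the placental growth factor, had -1.77 from a rise in VEC-null cells. Angpt2, the angiopoietin of unstable vessels, had -1.49 from a fall of 1.44 in VEC-positive cells. Kdr, the main VEGF receptor, rose in both lines, by 2.78 and 2.73, with a D of 0.05 (SE 0.16), and Vegfc and Nrp1 had 0.01 and 0.09.

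Endothelial identity as a whole did not move 1 way. Of 38 measured genes, 6 were higher and 6 lower, beside 6.48% and 6.2% of all genes. The median was -0.34 and became 0.33 with hybridisation control scaling. With density, 21 genes rose in VEC-positive cells (8.62% of all genes did) and 24 in VEC-null cells (9.14%). Its summed signal over 41 genes was 46890 to 47330 for sparse VEC-null cells and 151900 for confluent ones, and 70330 to 72990 in sparse and 153800 to 157300 in confluent VEC-positive cells. Beside Vwf, Aplnr, the apelin receptor, was higher, reading 15.5 and 13.1 in sparse VEC-null, 23.8 and 27.3 in confluent VEC-null, 13.2 and 15.4 in sparse VEC-positive and 216 and 218 in confluent VEC-positive cells, with a D of 1.82 (SE 0.27, 3.54-fold, limma adjusted p 0.0011). Calcrl, the receptor for adrenomedullin with Ramp2, had 1.53 and Gpr182 1.45. Emcn, the endothelial sialomucin endomucin, read 3651 and 3419 in sparse VEC-null, 12287 and 11753 in confluent VEC-null, 8041 and 7629.5 in sparse VEC-positive and 8098 and 7869 in confluent VEC-positive cells. It rose in VEC-null cells alone, to above both VEC-positive conditions, and D was -1.72 (SE 0.10, 3.31-fold, limma adjusted p 1.2e-05). Podxl, the sialomucin podocalyxin, had -1.63.

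At the junctions themselves the counts were small. Of 11 measured tight junction genes, 1 was higher, Cldn5, and 2 lower, Jam2 at -1.83 and Cldn15 at -1.17, beside 6.48% and 6.2% of all genes. The list median was -0.15. With hybridisation control scaling it was 0.40, with 3 higher and 1 lower, beside 26% and 2.02% of all genes. Tjp1 had -0.46 and Esam -0.85. Of 22 adherens junction genes, 3 were lower (6.2% of all genes) and 0 higher (6.48%), with a median of -0.19. With hybridisation control scaling 1 was lower and 3 higher, beside 2.02% and 26% of all genes, with a median of 0.50. The largest was Jup, plakoglobin, which joins cadherins to the cytoskeleton, and read 266 and 208 in sparse VEC-null, 2947 and 3374 in confluent VEC-null, 1202 and 1329.6 in sparse VEC-positive and 3508 and 3314 in confluent VEC-positive cells. It rose in both lines, by 3.49 in VEC-null and 1.40 in VEC-positive cells, from a lower start in sparse VEC-null cells, and D was -2.09 (SE 0.17, 4.27-fold, limma adjusted p 5.3e-05). Ctnnb1 and Ctnna1, beta- and alpha-catenin, had a D of -0.46 and 0.12, and Ctnnd1, p120 catenin, -0.26, none of which passed.

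Genes of the extracellular matrix split by condition. Of 21 measured matrix proteases and inhibitors, 12 were lower and 0 higher, beside 6.2% and 6.48% of all genes, with a median of -1.15. With hybridisation control scaling 5 were lower and 2 higher, beside 2.02% and 26% of all genes, with a median of -0.47. In this list the density response passed in VEC-null cells alone for 6 of the 12, in VEC-positive cells alone for 1 and in both in 1 direction for 5. Timp1, an inhibitor of matrix metalloproteinases, read 1789 and 2055 in sparse VEC-null, 2160.2 and 2127 in confluent VEC-null, 6561 and 6275 in sparse VEC-positive and 1831 and 1864 in confluent VEC-positive cells. Sparse VEC-positive cells were well above the other conditions, which lay close together, and D was -1.93 (SE 0.12, 3.8-fold, limma adjusted p 1.7e-05). Plaur, the urokinase receptor, read 1344 and 1318 in sparse VEC-null, 409 and 470.4 in confluent VEC-null, 1988 and 2334 in sparse VEC-positive and 166 and 66.2 in confluent VEC-positive cells, fell in both lines and further in VEC-positive cells, and had a D of -2.30 (SE 0.33, 4.93-fold, limma adjusted p 0.00094). The membrane protease Adam8 had -1.90, the lysosomal cathepsin Ctsb -1.69 and the collagenase Mmp13 -1.66.

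Among 18 fibrillar and other collagens, 5 were lower and 1 higher, beside 6.2% and 6.48% of all genes. The median was -0.54 and turned to 0.05 with hybridisation control scaling. The 3 type VI chains moved together in VEC-null cells. Col6a1 read 336 and 287 in sparse VEC-null, 1763 and 1872 in confluent VEC-null, 216 and 279 in sparse VEC-positive and 256 and 254 in confluent VEC-positive cells, with a D of -2.33 (SE 0.20, 5.01-fold, limma adjusted p 6e-05), and Col6a2 and Col6a3 had -2.32 and -1.71. Col5a1 had -1.32 from a fall in VEC-positive cells, and Col23a1, a transmembrane collagen, had a positive D of 1.97. Of 20 basement membrane genes, 2 were higher, Lamb3 and Col15a1, and 7 lower, beside 6.48% and 6.2% of all genes. The median was -0.71, or -0.05 with hybridisation control scaling. Nid1 and Nid2, the nidogens that tie laminin to type IV collagen, had a D of -2.01 and -1.92. They came about differently, since Nid1 fell by 2.01 in VEC-positive cells and was 0.00 in VEC-null cells, while Nid2 rose by 2.45 and 4.38. Npnt, the integrin ligand nephronectin, had -1.99.

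Markers of fibroblasts and mesenchymal cells stand beside these matrix values. Of 15 measured, 7 were lower and 1 higher, beside 6.2% and 6.48% of all genes. The median was -0.71, or -0.02 with hybridisation control scaling. Pdgfrb, the receptor of mural cells and fibroblasts, read 9.5 and 16.5 in sparse VEC-null, 311 and 344 in confluent VEC-null, 8.6 and 10.4 in sparse VEC-positive and 9.0 and 11.4 in confluent VEC-positive cells and had a D of -2.57 (SE 0.28, 5.93-fold, limma adjusted p 0.00021). Pdgfrb and Postn, which is also on this list, passed the level filter only through confluent VEC-null cells. Genes admitted in that way tend to a negative D, which adds to the count of 7. Tnc, tenascin C, had a D of -2.42 and S100a4 -1.81, both from a fall in VEC-positive cells. Snai2, a repressor of epithelial genes, had a positive D of 1.85. The widely used marker Col1a2 read 697 and 765 in sparse VEC-null, 865 and 927 in confluent VEC-null, 598 and 713 in sparse VEC-positive and 820.4 and 1115 in confluent VEC-positive cells and had a D of 0.24. The summed signal of the 24 listed genes on the chips was 9419 to 9637 for sparse VEC-null cells and 12990 to 13140 for confluent ones, and 18350 to 19760 in sparse and 9651 to 10100 in confluent VEC-positive cells. S100a4 and Tnc made up most of the sparse VEC-positive sum. The part of other cell types in the matrix results was not tested.

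Of 32 measured TGF-beta and BMP genes, 9 were lower and 2 higher, beside 6.2% and 6.48% of all genes. The median was -0.27, or 0.29 with hybridisation control scaling. Beside Id3, Id1, another BMP target, read 482 and 476 in sparse VEC-null, 589 and 659 in confluent VEC-null, 761 and 878 in sparse VEC-positive and 287 and 257 in confluent VEC-positive cells, with a D of -1.78 (SE 0.18, 3.43-fold, limma adjusted p 0.00012) and a VEC-null response of 0.35 that missed the test. Bmpr1a, a BMP receptor, had -2.34, and the secreted antagonists Grem1 and Fst had -2.02 and -2.02. Inhba, a subunit of activin, had -1.59. All 4 were highest in sparse VEC-positive cells. Fst fell by 5.26 in VEC-positive and 3.25 in VEC-null cells. Tgfb1, Tgfbr2 and Smad3 had a D of 0.32, -0.25 and 0.12, which did not pass.

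Interferon response genes rose with density in both lines and had a positive D in part. Of 32 measured genes, 9 were higher and 1 lower, beside 6.48% and 6.2% of all genes. The median was 0.15 (0.78 with hybridisation control scaling). These genes are switched on by the STAT and IRF factors that act below interferon receptors. In VEC-positive cells 24 rose and 1 fell, beside 8.62% and 7.27% of all genes, and in VEC-null cells 25 rose and 1 fell, beside 9.14% and 7.81%. Where D was positive, sparse VEC-positive cells passed as lower than each other condition in 8 of the 9. In the ninth, Cxcl10, they were also the lowest condition but did not pass against each of the others.

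Ifit1, an antiviral protein that binds foreign RNA, read 939 and 860.5 in sparse VEC-null, 2173 and 2109.8 in confluent VEC-null, 56.8 and 36.3 in sparse VEC-positive and 1906 and 1781 in confluent VEC-positive cells. The confluent conditions were alike, and the lines were far apart when sparse, so that the response was 4.30 in VEC-positive and 1.21 in VEC-null cells. D was 3.09 (SE 0.18, 8.54-fold, limma adjusted p 1.2e-05). Gbp3, a guanylate-binding protein, read 570.5 and 556 in sparse VEC-null, 2379.7 and 2706 in confluent VEC-null, 114 and 90.5 in sparse VEC-positive and 2557 and 2298 in confluent VEC-positive cells, with a D of 1.95 (SE 0.17, 3.85-fold, limma adjusted p 6.7e-05), and Oasl2, related to oligoadenylate synthases, read 577 and 561 in sparse VEC-null, 5019.9 and 4949.8 in confluent VEC-null, 38 and 47.7 in sparse VEC-positive and 2157 and 2132 in confluent VEC-positive cells, with a D of 1.54 (SE 0.17, 2.91-fold, limma adjusted p 0.00024). Both were low in sparse VEC-positive cells. Irf1 and Oasl1 had 1.32 and 1.49. Cxcl10, an interferon-induced chemokine, differed in shape, reading 1271 and 1038 in sparse VEC-null, 322 and 261 in confluent VEC-null, 90.6 and 98.6 in sparse VEC-positive and 164 and 128 in confluent VEC-positive cells. It fell by 1.82 in VEC-null cells, was highest in sparse VEC-null cells and had a D of 2.25 (SE 0.23, 4.75-fold, limma adjusted p 0.00017). Isg15, Stat2 and Usp18 had a D of -0.66, -0.45 and 0.33 and did not pass.

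The word of the interferon-stimulated response element, GAAA followed by any 2 bases and GAAA, was found in 13 of 27 promoters of these genes (48.1%) and in 3.04% of all. Genes of the list with and without a passing D held it in 5 of 9 and 8 of 18. Capitals mark the matches in Ifit1 (chr19:34640639-34640888) and Gbp3 (chr3:142559794-142560043), in reversed form on the strand of the gene, and those of Gbp3 overlap each other.
Ifit1: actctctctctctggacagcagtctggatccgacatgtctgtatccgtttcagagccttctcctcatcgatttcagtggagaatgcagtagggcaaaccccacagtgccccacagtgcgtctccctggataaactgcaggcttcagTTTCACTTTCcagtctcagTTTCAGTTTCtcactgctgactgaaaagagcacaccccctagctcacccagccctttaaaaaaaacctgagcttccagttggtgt
Gbp3: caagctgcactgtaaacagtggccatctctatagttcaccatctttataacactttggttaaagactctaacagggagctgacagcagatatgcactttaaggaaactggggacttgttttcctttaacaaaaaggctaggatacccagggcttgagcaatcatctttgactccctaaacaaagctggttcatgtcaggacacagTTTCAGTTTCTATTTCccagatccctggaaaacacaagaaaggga
The matches start 104 and 85 bases before the start in Ifit1 and 45 and 39 in Gbp3.

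Ribosomal proteins and the respiratory chain had a negative D of small size. Of 23 measured cytosolic ribosomal proteins, 9 were lower and 0 higher, beside 6.2% and 6.48% of all genes. The median was -0.86, and 22 were below 0. With hybridisation control scaling the median was -0.15, with 2 of 22 lower and 0 higher, beside 2.02% and 26% of all genes. With the deposited scaling, the density response of all 9 passed, as a fall, in VEC-positive cells alone. Rpl13a had a D of -1.96 (SE 0.13, 3.9-fold, limma adjusted p 1.8e-05), Rps13 -1.92, Rps19 -1.42 and Rpl10a -1.38. For Rps13 a VEC-null response of 0.86, short of the size threshold, added to the fall of 1.06 in VEC-positive cells. The median density response of the list was -1.06 in VEC-positive and -0.08 in VEC-null cells. Scaled to the hybridisation controls, it was -0.92 and -0.59. Ribosomal protein genes have many near-identical pseudogenes, so their probe sets may read more than 1 copy. Of 44 genes of the mitochondrial respiratory chain, 9 were lower and 0 higher, beside 6.2% and 6.48% of all genes, with a median of -0.51. With hybridisation control scaling, 2 of 46 were lower and 3 higher, beside 2.02% and 26% of all genes. The median was then 0.20, against 0.63 over all genes. After Uqcrh the largest were Atp5o, a subunit of ATP synthase, at -1.74, Ndufa7 of complex I at -1.63 and Cox7b of complex IV at -1.61.

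**Figure D5:**
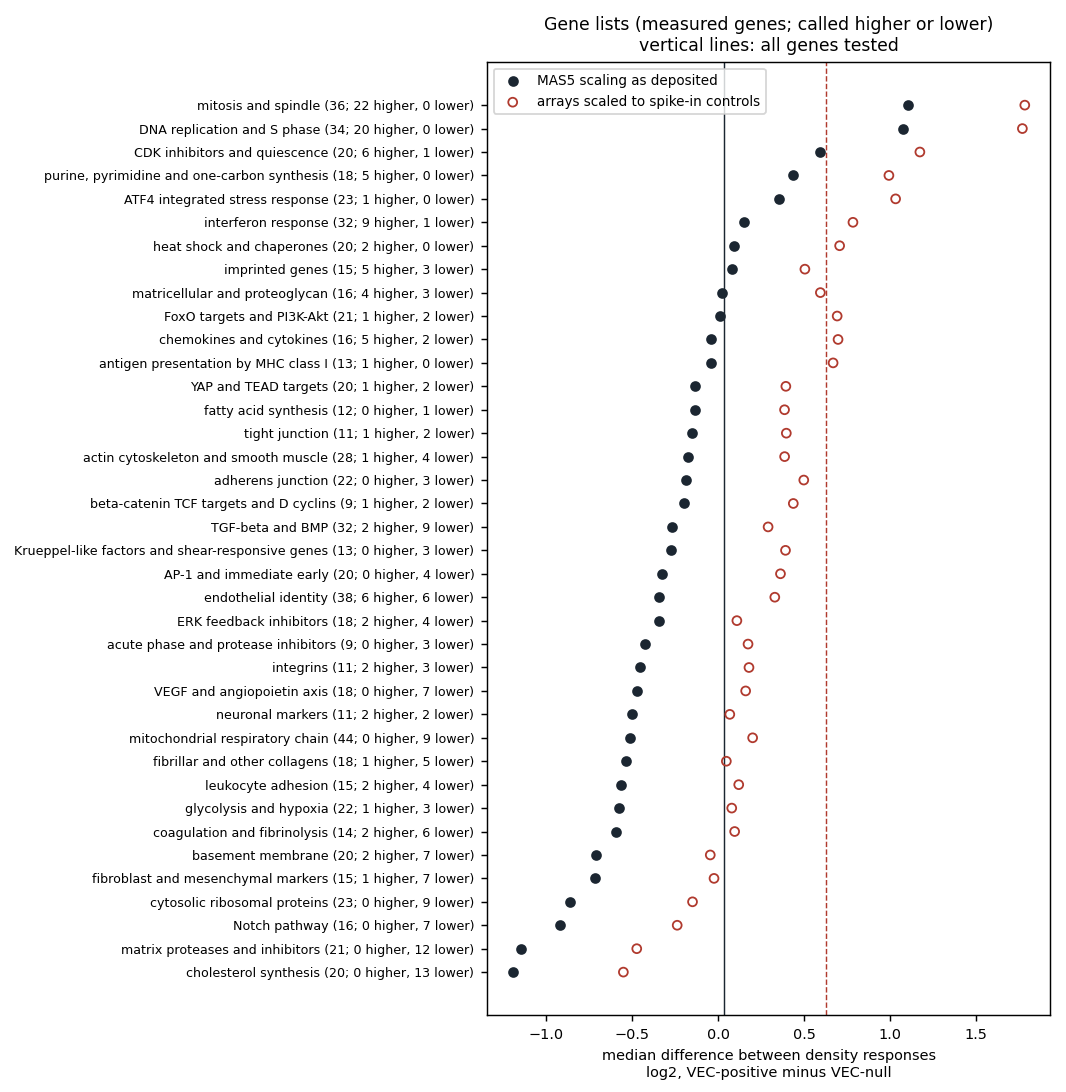
Filled points are the median D of each gene list with 9 or more measured genes, open points the same after scaling the arrays to the hybridisation controls, and the vertical lines the medians over all genes, 0.03 (solid) and 0.63 (dashed). Mitosis (1.10) and replication (1.07) lie furthest right, and cholesterol synthesis (-1.20), matrix proteases (-1.15) and Notch (-0.92) furthest left, and nearly every open point lies to the right of its filled one.

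Probe sets for the same gene give a check within these cRNA samples. For 320 genes with a passing D and 421 other measured probe sets, 355 had a D of the same sign (84.3%), and on the other chip, hybridised separately, 152 of 183 (83.1%). In 130 cases the second probe set passed in the same direction and in 2 in the opposite one, for Ap2b1 (1.12 and -1.51) and Srrm2 (-1.25 and 1.70). Between chromosomes, the share of genes with a passing D ranged from 9.09% to 16.2% and the median D from -0.04 to 0.13.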

How the data were processed

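Total RNA of 4 conditions was labelled once each and hybridised to 2 copies of 2 Affymetrix mouse chips. The deposited values are linear intensity (MAS5 signal) per probe set, which the authors had scaled array by array to 500, per the labels' protocols. The series text also names a median normalisation across samples, of which the values show no trace.

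Each chip was fitted by itself over its 4 conditions with limma 3.58.1 in R 4.3.3 (trended variance, 4 residual degrees of freedom) on log2(signal + 50). A probe set was tested if the mean of at least 1 condition was above the chip's median, at 160.3 (chip A) or 231 (chip B) units of signal. This kept 6997 and 7304 of 24833 probe sets without controls. Genes bright in 1 condition alone entered through it, so the filter itself favours the sign of D that this condition gives. Benjamini-Hochberg adjustment ran over both chips together. To pass, a difference needed a size of at least 1 beside an adjusted p under 0.05. A fold is 2 to the power of the size of D, the ratio between the fold changes of the lines on the signal + 50 scale, and understates the change of dim probe sets. The number of arrays limits only the precision between hybridisations, and the single cRNA sample per condition leaves the spread between cultures unmeasured.

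Platform annotation gave 21414 probe sets 1 gene symbol, 574 several and 2845 none, and 21367 matched RefSeq by gene identifier. The representative of a gene was a tested probe set, taken from chip A where there was one and otherwise from chip B, and among several the brightest. Named are the 12 genes of largest D in each direction, the 5 largest of each driving class and direction, Cldn5, Krt19 and Btnl9, and per list up to 6 members that passed, largest first. List members that did not pass may be named with values. The genes, lists and tests were chosen with earlier results of these data known. RefSeq promoters came from build GRCm38.p6. The fitting code was tested on simulated data.

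Same-numbered copies deviated together with correlations of -0.09 to 0.08, so the numbers do not pair arrays. Alternatives covered the offset, the level filter, the scaling, the variance trend, the replicate number, averaged copies and each array left out. Scaling to the hybridisation controls was added after seeing the data. No columns of other series were present.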

Additional observations from a re-analysis of the deposited data

Results flagged for a closer look

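The density response differed between the lines, by the limma test of the difference itself, for 1745 probe sets. The 12 genes of largest positive D were Cldn5 at 5.36, Vwf at 4.65, Lamb3 at 4.35, Zfp428 at 3.45, Bgn at 3.38, Il1r1 at 3.35, Ahrr at 3.29, Ifit1 at 3.09, Rgs2 at 3.07, Elp6 at 2.91, Plagl1 at 2.80 and Slc14a1 at 2.76. All of these rose more or fell less with density in VEC-positive than in VEC-null cells.

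The 12 genes of largest negative D were Btnl9 at -4.27, Krt19 at -4.12, Adamtsl1 at -3.70, Upp1 at -3.57, Postn at -3.54, Gja4 at -3.35, Col3a1 at -3.34, Anxa8 at -3.30, Stfa3 at -3.29, Serpina3n at -3.22, Fbln2 at -3.20 and Plat at -3.17. For these the change with density was lower in VEC-positive cells.

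Control probe sets lie outside the gene measurements, and both kinds carried a difference. The hybridisation controls had a median D of -0.60 and the actin and Gapdh control probe sets of -0.66, where a value of 0 would mean equal density responses at the deposited scaling.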

How the results depend on the processing

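The 1745 probe sets with a passing D became 1018 (480 higher, 538 lower) with an offset of 200 in place of 50, and 3761 (3479 higher, 282 lower) with the arrays scaled to the hybridisation controls, an alternative added after seeing the data. With an offset of 200, the density response of VEC-positive cells passed for 1305 and the density response of VEC-null cells for 1444, probe sets with 1 condition apart 349, and the classes 271 for VEC-positive alone, 301 for VEC-null alone, 68 for both in 1 direction and 4 for both in opposite directions. With hybridisation control scaling the classes were 795 for VEC-positive alone, 1303 for VEC-null alone, 52 for opposite directions and 1422 for neither line. A level filter at the 75th percentile left 302 for VEC-positive alone, and an offset of 1 gave 36 for opposite directions. The cause of these changes was not tested, other than that the larger offset shrinks every difference by construction and the stricter filter tests fewer probe sets (8168).

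Leaving out 1 array copy at a time, with the lone copy assumed to vary like the others, gave 1630 to 1801 probe sets with a passing D, 766 to 906 higher and 840 to 896 lower. Density responses ranged from 2182 to 2318 in VEC-positive and from 2333 to 2404 in VEC-null cells. The classes ranged from 441 to 565 (VEC-positive alone), 494 to 574 (VEC-null alone), 141 to 164 (same direction), 12 to 19 (opposite, the highest without copy 1 of sparse VEC-positive cells) and 477 to 583 (neither), and 616 to 692 had 1 condition apart. With the copy number as a replicate block, 1746 probe sets passed, 1709 of them shared, and no count moved by over 1.5 times.

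Of 53 genes named by size of D, 51 kept their direction and passed in every alternative in which they were tested. Tmem62 missed the test with an offset of 200 and without some copies, and Nup210 with hybridisation control scaling and without some copies. No named gene reversed. The median SE of D was 0.27 on chip B against 0.20 on chip A.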

Other observations

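Among genes that restrain the cell cycle, more had a positive than a negative D. Of 20 measured CDK inhibitors and quiescence genes, 6 had a higher D that passed and 1 a lower, beside 6.48% and 6.2% of all genes, with a median of 0.59. Gadd45b, a stress-induced growth arrest gene, read 2607 and 2617 in sparse VEC-null, 344 and 332 in confluent VEC-null, 2889.6 and 2758 in sparse VEC-positive and 1701 and 1549 in confluent VEC-positive cells. It fell with density by 2.78 in VEC-null cells, the VEC-positive response of -0.78 missed the size threshold, and D was positive and passed (limma adjusted p 1.6e-05). Sesn1, a p53 target that restrains mTORC1, read 200.5 and 232 in sparse VEC-null, 141 and 128 in confluent VEC-null, 194 and 217 in sparse VEC-positive and 648 and 651 in confluent VEC-positive cells, rose in VEC-positive cells alone and had a D of 1.98 (SE 0.20, 3.95-fold, limma adjusted p 0.00013). Cdkn2c, the inhibitor p18 of CDK4 and CDK6, also rose in VEC-positive cells alone (D 1.83), while Cdkn2b, the inhibitor p15, fell there (D -1.13). Of 18 genes of purine, pyrimidine and one-carbon synthesis, 5 were higher and 0 lower, beside 6.48% and 6.2% of all genes, with a median of 0.44. Beside Atic these were Shmt1 (1.45), Mthfd2 (1.34), Gart (1.33) and Prps1 (1.31). The last 4 fell with density in VEC-null cells, and their response in VEC-positive cells did not pass.

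Feedback inhibitors of ERK signalling went both ways. Of 18 measured, 4 were lower and 2 higher, beside 6.2% and 6.48% of all genes. The median was -0.35, and 0.11 with the arrays scaled to the hybridisation controls. Dusp6, a cytoplasmic ERK phosphatase, read 1344 and 1624 in sparse VEC-null, 2671 and 2776 in confluent VEC-null, 2228 and 2559 in sparse VEC-positive and 801 and 938 in confluent VEC-positive cells. It fell in VEC-positive cells, was 0.86 in VEC-null cells without reaching the size threshold, and had a D of -2.27 (SE 0.17, 4.83-fold, limma adjusted p 3.4e-05). Spry2, an inhibitor of receptor tyrosine kinase signalling, read 1576 and 1749 in sparse VEC-null, 1608 and 1814 in confluent VEC-null, 2413 and 2385 in sparse VEC-positive and 712 and 708 in confluent VEC-positive cells, with a D of -1.73 (SE 0.15, 3.31-fold, limma adjusted p 6.7e-05), and confluent VEC-positive cells were the low condition. Dusp9 and Phlda1 had a positive D of 1.08 and 1.02. Of 16 measured chemokines and cytokines, 5 were higher and 2 lower, beside 6.48% and 6.2% of all genes. The median was -0.04. With hybridisation control scaling it was 0.70, with 6 higher and 1 lower, beside 26% and 2.02% of all genes. Cxcl12, which guides CXCR4-bearing cells, read 1882 and 1762 in sparse VEC-null, 366 and 406 in confluent VEC-null, 464 and 454 in sparse VEC-positive and 272 and 273 in confluent VEC-positive cells, fell in VEC-null cells and had a D of 1.44 (SE 0.16, 2.72-fold, limma adjusted p 0.00021). Cxcl5 and Cxcl2, which attract neutrophils, had 1.36 and 1.02, and Ccl3 had -1.91. Klf2, the flow-responsive endothelial factor, read 47.3 and 28.6 in sparse VEC-null, 459.7 and 488 in confluent VEC-null, 241 and 213 in sparse VEC-positive and 477 and 404 in confluent VEC-positive cells. Sparse VEC-null cells were the low condition, and D was -1.76 (SE 0.23, 3.38-fold, limma adjusted p 0.00054). Its target Nos3, the endothelial nitric oxide synthase, had a D of -1.01.

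Neuronal markers were also listed. Of 11 measured, 2 were higher and 2 lower, beside 6.48% and 6.2% of all genes, with a median of -0.50. With hybridisation control scaling 2 of 12 were higher and 0 lower, beside 26% and 2.02% of all genes, with a median of 0.07. The summed signal of the 24 genes on the chips was 18410 and 19580 in sparse VEC-positive cells and 7888 to 11480 in the other conditions. Blood cell markers summed to 2342 and 3017 in confluent VEC-null cells and to 1711 to 2030 in the other conditions. Embryonic stem cell markers summed to 1324 to 1518 in VEC-null and to 2286 to 2837 in VEC-positive cells. The part of these marker groups in the results was not tested.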
